A study of Mus musculus with 31 samples.

Results

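The 10 genes described here encode transcription factors of cortical glutamatergic neurons, the excitatory projection neurons of the cerebral cortex: Tbr1, Eomes, Neurod2, Neurod6, Nfia, Nfib, Zbtb18, Bcl11a, Bcl11b and Fezf2. They were taken by name, with earlier results of these data known. They are 10 of the 34865 genes of a bulk RNA-seq table and 10 of the 55487 genes of a Smart-seq2 table. Each of the 10 is present in both. The bulk libraries came from wild-type mouse embryos at E10.5 (embryonic day), with 3 libraries of dorsal diencephalon (spelled Dosal in the labels) and 3 of ventral diencephalon. The Smart-seq2 libraries came from E11.5 medial cortex, with 13 labelled Emx1-cre(+/-)::MDMD::Axin2(-/-), called Axin2-null below, and 12 labelled Emx1-cre(+/-)::MDMD::Axin2(+/+), called wild type below. Smart-seq2 reads whole transcripts from a cell or a few cells, and the labels describe these samples as single cells. All 25 of these libraries, the wild-type ones included, derive from mice carrying Emx1-CreERT2, MADM-11 and an Axin2LacZ allele. MADM (mosaic analysis with double markers) makes differently coloured mutant and wild-type cells by recombination between a pair of chromosomes, and MADM-11 places this on chromosome 11. The Emx1 promoter that drives the Cre is active in the dorsal telencephalon, so the labelled cells are of that lineage. Axin2 itself, a feedback inhibitor of Wnt signalling, had a lowest, median and highest value of 0, 3.28 and 22.4 TPM (a transcript level scaled for gene length and library total) in Axin2-null libraries, against 4.32, 13.2 and 35.9 TPM in wild-type libraries. The ranges overlapped, and Axin2 was listed at 0 in 1 of 13 Axin2-null libraries and above 0 in the other 12. Whether these reads lie in the part of Axin2 altered in the LacZ allele cannot be read from the table.

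In the developing cortex, radial glia give rise to intermediate progenitors, which express Eomes (Tbr2) and divide to produce neurons. Young neurons then express Neurod2, Neurod6 and Tbr1, and the choice between corticothalamic, subcerebral and callosal projections depends on mutual repression among factors that include Tbr1, Fezf2 and Bcl11b (Ctip2). Nfia and Nfib act in radial glia and in deep-layer neurons, and Zbtb18 (RP58) is a repressor needed for the exit from the progenitor state. Several of the 10 genes are also used outside the cortex, so their RNA in a diencephalic or mixed sample does not by itself identify a cortical cell.

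The sequences at the starts of these genes are shown because the 10 genes differ in one direction between the bulk regions. RefSeq promoter windows on GRCm38.p6, from 250 bases before to 50 bases after the annotated start, were available for 9 of the 10 genes, in 13 windows of 300 bases. Those of Tbr1 (chr2:61804203-61804502, plus strand), Neurod6 (chr6:55681214-55681513, minus strand), Neurod2 (chr11:98329596-98329895, minus strand), Nfia (chr4:97581693-97581992, plus strand) and the first of 5 windows of Zbtb18 (chr1:177442101-177442400, plus strand) are printed 5′ to 3′ on the gene's strand. The windows of Tbr1 and Neurod6 belong to the genes with the largest bulk differences, and the other windows hold the sequence CAGATG, which is in capitals on whichever strand it was found.
Tbr1: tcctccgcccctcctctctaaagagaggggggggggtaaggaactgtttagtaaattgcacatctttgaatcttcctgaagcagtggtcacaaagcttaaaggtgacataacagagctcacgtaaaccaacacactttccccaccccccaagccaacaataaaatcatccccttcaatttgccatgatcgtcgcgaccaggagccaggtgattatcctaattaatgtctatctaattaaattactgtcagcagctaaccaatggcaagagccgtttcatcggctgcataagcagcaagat
Neurod6: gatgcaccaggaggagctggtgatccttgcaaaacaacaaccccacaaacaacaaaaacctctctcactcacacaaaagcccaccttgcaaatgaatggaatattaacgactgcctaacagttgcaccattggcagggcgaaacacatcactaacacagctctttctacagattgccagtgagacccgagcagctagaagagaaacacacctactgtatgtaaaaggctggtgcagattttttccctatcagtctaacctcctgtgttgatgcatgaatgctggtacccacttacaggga
Neurod2: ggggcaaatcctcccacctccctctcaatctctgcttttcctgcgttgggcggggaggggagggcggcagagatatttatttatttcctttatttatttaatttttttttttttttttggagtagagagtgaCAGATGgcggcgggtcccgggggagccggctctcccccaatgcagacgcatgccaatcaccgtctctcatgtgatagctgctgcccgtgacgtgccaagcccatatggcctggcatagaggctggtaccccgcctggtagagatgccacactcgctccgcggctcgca
Nfia: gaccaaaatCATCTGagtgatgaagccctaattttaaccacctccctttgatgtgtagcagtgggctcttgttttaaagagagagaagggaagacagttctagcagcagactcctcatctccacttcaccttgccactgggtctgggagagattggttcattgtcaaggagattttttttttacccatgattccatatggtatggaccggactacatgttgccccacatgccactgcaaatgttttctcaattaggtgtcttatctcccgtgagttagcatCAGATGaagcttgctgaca
Zbtb18: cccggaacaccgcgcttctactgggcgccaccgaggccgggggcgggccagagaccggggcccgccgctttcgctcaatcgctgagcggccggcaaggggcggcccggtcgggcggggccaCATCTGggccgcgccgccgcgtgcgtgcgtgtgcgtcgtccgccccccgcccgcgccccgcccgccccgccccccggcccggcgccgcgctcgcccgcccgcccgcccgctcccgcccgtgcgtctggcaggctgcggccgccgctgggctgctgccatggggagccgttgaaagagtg
CAGATG is a form of the E-box bound by bHLH factors such as the Neurod family, and its reverse complement CATCTG lies within the sequence bound by Zbtb18. It was searched on both strands and was present in 17.2% of all 32851 RefSeq promoter windows of the mouse. Among the windows of these genes it was found in 7 of 13, of which 5 belong to Zbtb18. By gene it was found in 3 of 9: once in Neurod2, 118 bases before the start, in Nfia at 241 bases before and 32 bases after the start, and at 4 distinct places in the 5 partly overlapping windows of Zbtb18. The first of those of Zbtb18 lies 129 bases before the start. The T-box sequence AGGTGTGA, present in 1.28% of windows, and the nuclear factor I palindrome, TTGGC and GCCAA with 5 bases of any kind between them, present in 0.0365%, were found in 0 of the 9 genes. A match describes these letters only and is not evidence of binding. The RefSeq start of Tbr1 lies inside the GENCODE M21 gene, and the Nfia window lies upstream of the GENCODE M21 gene (chromosome 4, 97772734 to 98118874), so for these genes the models differ in where transcription starts.

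The bulk libraries held 17604411 to 20838226 estimated counts each, and values are given as CPM (counts scaled to a common library size with TMM factors). All 10 genes were higher in dorsal than in ventral diencephalon at adjusted p-values of 3.08e-05 to 0.000588 (edgeR quasi-likelihood test, threshold 0.05), with log2 fold changes of 1.48 to 7.13 and a median of 3.70. Over all 14701 genes in the same test, 7.14% passed in the dorsal direction and 9.54% in the ventral direction, and the median over all genes was 0.01. For each of the 10 genes every dorsal library was above every ventral library, which held for 19.0% of all genes. Of the 10 genes, 9 differed by at least 4-fold, against 2.17% of all genes, 6 by at least 10-fold and 4 by at least 40-fold. Summed CPM of the 10 genes were 4910, 4482 and 3908 in dorsal libraries and 413, 401 and 444 in ventral libraries. In bulk tissue, fewer cells of a type and less RNA per cell cannot be told apart.

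**Figure D1:**
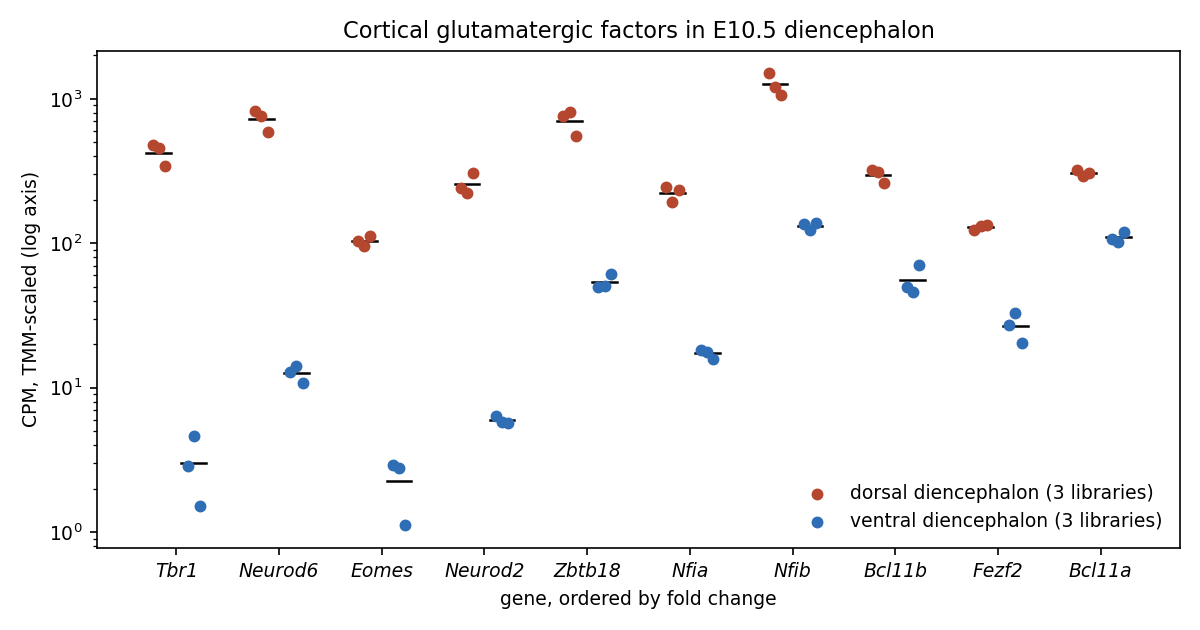
Level of each of the 10 genes in every bulk library, in CPM on a log10 axis, with dorsal libraries left of ventral libraries and a bar at each mean. For every gene the 3 dorsal points lie above the 3 ventral points, by the widest margin for Tbr1 (means of 424 CPM for dorsal and 3.01 CPM for ventral) and the narrowest for Bcl11a (305 CPM for dorsal and 109.9 CPM for ventral).

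Eomes, the factor of intermediate progenitors (ENSMUSG00000032446, chromosome 9, 118478212 to 118486132, plus strand of GRCm38), was at 103, 95.02 and 113 CPM in dorsal libraries and at 2.92, 2.76 and 1.12 CPM in ventral libraries. It was thus high in all 3 dorsal libraries and low in all 3 ventral libraries, with no overlap. The means were 104 ± 8.82 CPM in the dorsal libraries and 2.27 ± 0.999 CPM in the ventral ones (SD, n = 3 each), with a log2 fold change of 5.51 (SE 0.37, adjusted p = 0.000102 by the edgeR quasi-likelihood test). Tbr1, a related T-box factor that follows Eomes in the lineage and specifies corticothalamic neurons (ENSMUSG00000035033, chromosome 2, 61802930 to 61814114, plus strand), was at 476, 456 and 342 CPM in dorsal libraries and at 2.87, 4.66 and 1.51 CPM in ventral libraries. Its difference was the largest of the 10 genes, with a mean of 424 ± 72.2 CPM in the dorsal libraries and 3.01 ± 1.58 CPM in the ventral ones. The log2 fold change of Tbr1 was 7.13 (SE 0.43, adjusted p = 8.51e-05, edgeR quasi-likelihood test), the 14th largest among all genes tested. Dorsal library 3 had the lowest Tbr1 and the highest Eomes of the dorsal libraries.

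Neurod2 and Neurod6 encode bHLH factors of postmitotic projection neurons. Neurod2 (ENSMUSG00000038255, chromosome 11, 98325415 to 98329648, minus strand) was at 243, 223 and 307 CPM in dorsal libraries and at 6.33, 5.799 and 5.69 CPM in ventral libraries. Neurod6 (ENSMUSG00000037984, chromosome 6, 55677822 to 55681263, minus strand) was at 820, 762 and 587 CPM in dorsal libraries and at 12.9, 14.04 and 10.8 CPM in ventral libraries. For both genes the dorsal libraries lay far above the ventral ones. Neurod2 averaged 258 ± 43.8 CPM in the dorsal libraries and 5.94 ± 0.342 CPM in the ventral ones, and Neurod6 723 ± 121 CPM in the dorsal libraries and 12.55 ± 1.66 CPM in the ventral ones (SD, n = 3 each). The paralogs differed between regions by like amounts, with log2 fold changes of 5.44 (SE 0.21) for Neurod2 and 5.85 (SE 0.22) for Neurod6. Both had an adjusted p of 3.08e-05 in the edgeR quasi-likelihood test, the smallest of the 10 genes. The high library differed, since dorsal library 3 was highest in Neurod2 and lowest in Neurod6.

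Nfia and Nfib encode nuclear factor I proteins, which take part in the maturation of deep-layer neurons, in callosal development and later in gliogenesis. Nfia (ENSMUSG00000028565, coordinates above, plus strand) was at 247, 192 and 234 CPM in dorsal libraries and at 18.3, 17.8 and 15.9 CPM in ventral libraries, a log2 fold change of 3.69 (SE 0.19, adjusted p = 5.25e-05, edgeR quasi-likelihood test). Nfib (ENSMUSG00000008575, chromosome 4, 82290173 to 82705750, minus strand) was at 1501, 1212 and 1070.2 CPM in dorsal libraries and at 136, 123 and 138 CPM in ventral libraries. Its log2 fold change was 3.25 (SE 0.18, adjusted p = 6.08e-05, edgeR quasi-likelihood test). Nfia averaged 224 ± 28.5 CPM in the dorsal libraries and 17.3 ± 1.26 CPM in the ventral ones, and Nfib 1261 ± 219.8 CPM in the dorsal libraries and 132 ± 8.06 CPM in the ventral ones (SD, n = 3 each). Unlike Tbr1 and Eomes, both genes had more than 15 CPM in every ventral library. Zbtb18 (ENSMUSG00000063659, chromosome 1, 177442351 to 177450764, plus strand) was at 755, 807 and 553 CPM in dorsal libraries and at 49.8, 50.8 and 61.7 CPM in ventral libraries. It averaged 705 ± 134 CPM in the dorsal libraries and 54.1 ± 6.56 CPM in the ventral ones, with no overlap. The log2 fold change of Zbtb18 was 3.70 (SE 0.21, adjusted p = 6.62e-05, edgeR quasi-likelihood test), close to that of Nfia.

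Fezf2, Bcl11b and Bcl11a, zinc-finger factors that set the projections of deep-layer neurons, had the smallest differences, though their regions did not overlap. Fezf2, which specifies subcerebral projection neurons and is also made by early forebrain progenitors (ENSMUSG00000021743, chromosome 14, 12342094 to 12348189, minus strand), was at 124, 131 and 133 CPM in dorsal libraries and at 27.0, 32.8 and 20.5 CPM in ventral libraries. It averaged 129 ± 4.64 CPM in the dorsal libraries and 26.8 ± 6.17 CPM in the ventral ones (SD, n = 3 each), a log2 fold change of 2.27 (SE 0.21, adjusted p = 0.000396, edgeR quasi-likelihood test). Bcl11b, which acts downstream of Fezf2 in axon extension (ENSMUSG00000048251, chromosome 12, 107910403 to 108003602, minus strand), was at 322, 313 and 263 CPM in dorsal libraries and at 49.8, 46.2 and 70.3 CPM in ventral libraries. The means were 299 ± 32.0 CPM in the dorsal libraries and 55.4 ± 13.02 CPM in the ventral ones, a log2 fold change of 2.43 (SE 0.21, adjusted p = 0.000312, edgeR quasi-likelihood test). Bcl11a, which restrains subcerebral fate in the cortex and is used widely in neurons (ENSMUSG00000000861, chromosome 11, 24078056 to 24174123, plus strand), was at 319, 291 and 307 CPM in dorsal libraries and at 107, 103 and 119 CPM in ventral libraries. It had the smallest difference of the 10 genes, a log2 fold change of 1.48 (SE 0.15, adjusted p = 0.000588, edgeR quasi-likelihood test), and 894 of all genes tested had a larger one. Exons of Zbtb18, Nfia, Eomes and Bcl11a overlap those of another gene on the opposite strand over 0.037% to 2.84% of their length, and whether the counting used strand is not given in the sources used here. Reads from these stretches cannot be assigned with certainty.

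**Figure D2:**
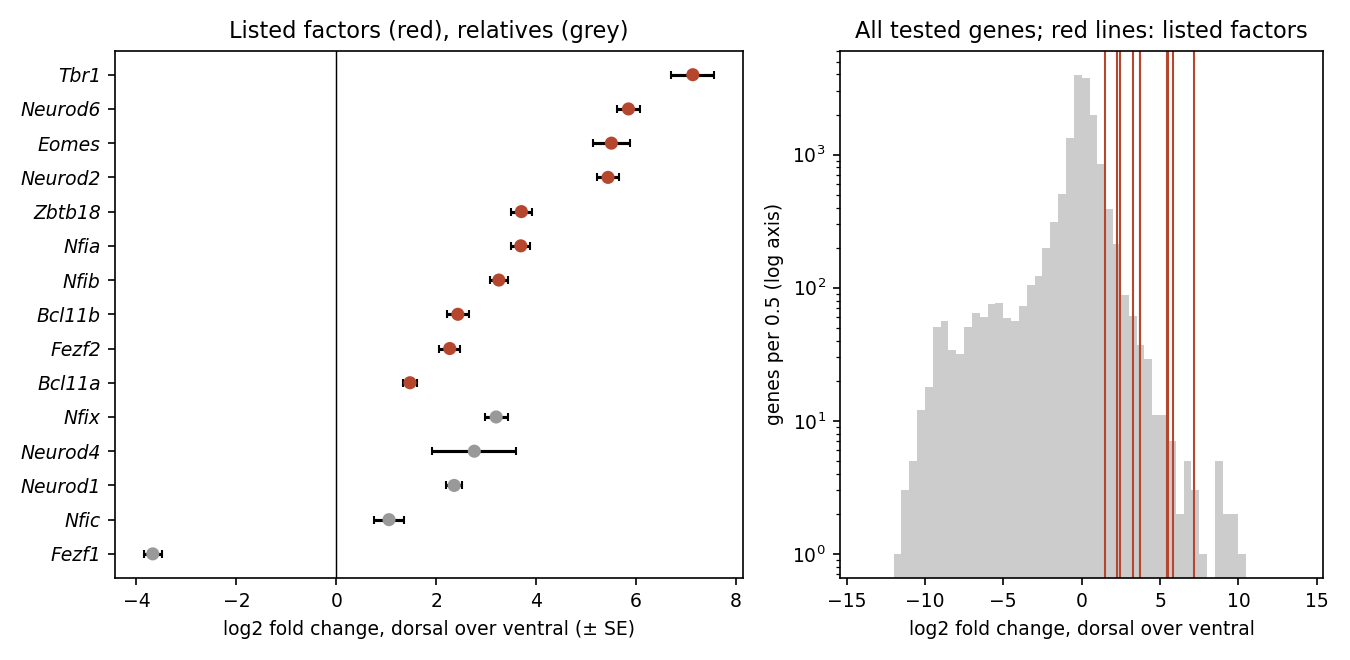
Left, log2 fold change of dorsal over ventral for the 10 genes (red) and 5 tested paralogs (grey), with bars for the SE. The SE was derived as the size of the log2 fold change divided by the square root of the edgeR F statistic. Right, histogram of the log2 fold changes of all 14701 genes tested. The number of genes is on a log axis, and red lines stand at the 10 genes. All 10 genes lie right of 0, between 1.48 for Bcl11a and 7.13 for Tbr1, and Fezf1 is the paralog left of 0.

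Levels of different genes were compared as CPM per kb of exon, using union exon lengths of GENCODE M21. In dorsal libraries Neurod6 was highest at 336 ± 56.2 CPM per kb (SD, n = 3), above all other members in every library. Zbtb18 (115 ± 21.8), Nfib (84.3 ± 14.7), Neurod2 (82.0 ± 13.95) and Tbr1 (77.4 ± 13.2 CPM per kb) followed, and the ranges of neighbours in this order overlapped. Fezf2 (42.4 ± 1.52) and Bcl11b (36.9 ± 3.95 CPM per kb) came next. Eomes (24.9 ± 2.12), Bcl11a (23.2 ± 1.08) and Nfia (20.6 ± 2.62 CPM per kb) were lowest, and in this order neighbours overlapped while Eomes and Nfia did not. The ventral order was different. Nfib, Zbtb18, Fezf2, Bcl11a, Bcl11b and Neurod6 formed a chain of overlapping neighbours between 8.84 ± 0.539 and 5.84 ± 0.772 CPM per kb. Neurod2 (1.89 ± 0.109), Nfia (1.59 ± 0.116), Tbr1 (0.549 ± 0.289) and Eomes (0.545 ± 0.240 CPM per kb) were lowest. Tbr1 was thus in the middle of the dorsal order and, with Eomes, at the bottom of the ventral order.

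Ratios within a library show how related members shifted against each other. The per-length ratio of Tbr1 to Eomes was 3.49, 3.63 and 2.30 in dorsal libraries and 0.745, 1.28 and 1.02 in ventral libraries, with no overlap. The ratio of Bcl11a to Bcl11b was 0.610, 0.572 and 0.719 in dorsal libraries and 1.33, 1.37 and 1.05 in ventral libraries, again with no overlap. Per kb of exon, Bcl11b was thus the higher of that pair in every dorsal library and the lower in every ventral library. The dorsal order depends on the union exon lengths, 13175 bases for Bcl11a and 8111 bases for Bcl11b. In CPM, Bcl11a was at 319, 291 and 307 and Bcl11b at 322, 313 and 263 in dorsal libraries. By CPM, dorsal library 3 therefore had more Bcl11a than Bcl11b. The ratio of Nfib to Nfia averaged 4.12 ± 0.685 in dorsal and 5.59 ± 0.649 in ventral libraries (SD, n = 3 each). The ratio of Neurod6 to Neurod2 averaged 4.24 ± 1.25 in dorsal and 3.09 ± 0.400 in ventral libraries, and its ranges overlapped. No test was made of these ratios, for which 3 against 3 libraries allow an exact two-sided permutation p no smaller than 0.10.

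The other members of the same families did not all share the direction. Of 6 paralogs, 5 were abundant enough to be tested, of which 3 were higher dorsally and 1 ventrally. Nfix, a further nuclear factor I gene, was at 231 ± 46.7 CPM in the dorsal libraries and 25.2 ± 4.59 CPM in the ventral ones, with a log2 fold change of 3.20 (SE 0.23, adjusted p = 0.000124, edgeR quasi-likelihood test). Neurod1, which acts at the transition from intermediate progenitor to neuron, was at 181 ± 9.61 CPM in the dorsal libraries and 35.2 ± 3.67 CPM in the ventral ones, with a log2 fold change of 2.36 (SE 0.17, adjusted p = 0.000119, edgeR quasi-likelihood test). Nfic was at 12.04 ± 0.604 CPM in the dorsal libraries and 5.79 ± 0.357 CPM in the ventral ones, a log2 fold change of 1.06 (SE 0.30, adjusted p = 0.047, edgeR quasi-likelihood test). Neurod4 was at 18.6 ± 6.65 CPM in the dorsal libraries and 2.75 ± 3.002 CPM in the ventral ones and did not pass, with an adjusted p of 0.062 in the edgeR quasi-likelihood test. Fezf1, the paralog of Fezf2 that acts in the hypothalamus and olfactory system, ran the other way, with 13.6 ± 0.731 CPM in the dorsal libraries and 173 ± 18.9 CPM in the ventral ones. Its log2 fold change was -3.67 (SE 0.18, adjusted p = 4.7e-05, edgeR quasi-likelihood test). Tbx21 was under the minimum for testing.

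Other genes of the same lineage were also higher in dorsal diencephalon, in smaller shares of their lists. Of 12 genes listed for the upstream neurogenic lineage, not all of them transcription factors, 6 were higher dorsally and 0 ventrally (median log2 fold change 1.21). Neurog2, the proneural factor that activates this lineage, was at 375 ± 5.21 CPM in the dorsal libraries and 34.7 ± 7.68 CPM in the ventral ones, and its target Rnd2, a regulator of neuronal migration, at 433 ± 80.0 CPM in the dorsal libraries and 59.6 ± 10.8 CPM in the ventral ones. Of 16 other projection neuron factors, 10 were higher dorsally and 1 ventrally (median 1.06). Leaving out dorsal library 1 gave 6 in dorsal. The ventral count became 3 when dorsal library 3 was left out, 2 when ventral library 3 was left out and 0 when ventral library 1 or 2 was. Pou3f3, an upper-layer factor, was at 104.7 ± 24.2 CPM in the dorsal libraries and 12.8 ± 3.55 CPM in the ventral ones. Bhlhe22, a bHLH factor of cortical area identity, was at 76.3 ± 13.6 CPM in the dorsal libraries and 12.9 ± 2.02 CPM in the ventral ones. Lmo3 was the gene with the ventral call, at 71.6 ± 21.1 CPM in the dorsal libraries and 161 ± 16.1 CPM in the ventral ones. Of 4 glutamate transporter genes tested, 3 were higher dorsally and 0 ventrally (median 1.41). Slc17a7, the vesicular transporter VGLUT1 of cortical glutamatergic neurons, was at 77.9 ± 17.2 CPM in the dorsal libraries and 0.175 ± 0.0561 CPM in the ventral ones, and the glutamate uptake gene Slc1a2 at 90.3 ± 21.4 CPM in the dorsal libraries and 20.96 ± 4.99 CPM in the ventral ones. All of the counts named here are from the edgeR quasi-likelihood test.

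Genes shared by all neurons were divided in direction. Of 14 pan-neuronal genes, 2 were higher dorsally and 5 ventrally, with a median of -0.17. Dcx, a microtubule protein of migrating neurons, was at 653 ± 139 CPM in the dorsal libraries and 340 ± 43.1 CPM in the ventral ones. The microtubule regulator Stmn2 was at 740 ± 79.1 CPM in the dorsal libraries and 1219 ± 77.4 CPM in the ventral ones, and the synaptic vesicle gene Syt1 at 86.5 ± 33.2 CPM in the dorsal libraries and 285 ± 16.5 CPM in the ventral ones. These counts rest on single libraries: the dorsal count became 0 when dorsal library 1, dorsal library 2 or ventral library 2 was left out, and 1 when ventral library 1 was. The ventral count became 1 when dorsal library 1, dorsal library 2 or ventral library 1 was left out, and 2 when ventral library 2 was. Of 14 cell-cycle genes, 13 were higher dorsally and 0 ventrally (median 2.03). Of 14 GABAergic genes, 3 were higher dorsally and 4 ventrally (median -0.32).

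Markers of other regions and cells moved between the bulk regions together with the 10 genes. Summed CPM of the telencephalic markers Emx1, Emx2 and Lhx2 was 528 to 627 in the dorsal libraries and 32.2 to 39.1 in the ventral ones, although the labels name both tissues as diencephalon. Lhx2, which the thalamus also expresses and which stands on the thalamic list too, made up 464 to 549 CPM of that sum in the dorsal libraries and 27.4 to 29.2 CPM in the ventral ones. Emx1 was at 21.6 to 36.2 CPM in the dorsal libraries and 0 to 0.0542 CPM in the ventral ones, and Emx2 at 42.5 to 47.7 CPM in the dorsal libraries and 4.79 to 11.04 CPM in the ventral ones. Thalamic and epithalamic markers (Tcf7l2, Gbx2, Lhx9, Olig3, Pou4f1) summed to 1339 to 1604 CPM in dorsal and 79.7 to 82.5 CPM in ventral libraries, so markers of telencephalon and of dorsal diencephalon were high in the same libraries. Hypothalamic markers (Rax, Nkx2-1, Six6, Otp, Sim1, Nr5a1) summed to 27.7 to 37.9 CPM in dorsal and 454 to 795 CPM in ventral libraries. Of the longer lists, 8 of 13 cortical progenitor genes were higher dorsally and 0 ventrally (median 1.87, with 1 ventrally when dorsal library 3 was left out). Among 11 thalamic genes 9 were higher dorsally and 0 ventrally (median 4.03), and among 13 hypothalamic genes 1 was higher dorsally and 11 ventrally (median -3.67). The single dorsal call among the hypothalamic genes, Lhx8, was lost when dorsal library 1 or 2 or ventral library 1 or 2 was left out. Cajal-Retzius cell markers, of which 4 were higher dorsally and 1 ventrally, summed to 405 to 466 CPM in the dorsal libraries and 153 to 197 CPM in the ventral ones. Cajal-Retzius cells are early glutamatergic neurons that also express Tbr1. Reln, their secreted signal, was at 220 ± 36.5 CPM in the dorsal libraries and 12.5 ± 1.99 CPM in the ventral ones, and Trp73, a p53-family factor they express, at 46.3 ± 10.3 CPM in the dorsal libraries and 0.319 ± 0.197 CPM in the ventral ones. Of the full list of 12 Cajal-Retzius genes, 8 were higher in dorsal and 1, Lhx5, in ventral diencephalon, with 4 higher in dorsal without ventral library 1. Neuron markers (Tubb3, Dcx, Stmn2, Elavl3) overlapped between the regions, at 3130.4 to 3522 CPM in the dorsal libraries and 3324 to 3796 CPM in the ventral ones. Blood and vessel markers (Hbb-y, Hba-x, Cdh5, Pecam1) summed to 25.4 to 61.3 CPM in the dorsal libraries and 3.79 to 4.60 CPM in the ventral ones, with 2 of 4 called higher in dorsal and 1 under the minimum. A list of 16 small intestine and pancreas genes, picked in an earlier account of these libraries, summed to 9.48 to 10.6 CPM in dorsal and 2373 to 9336 CPM in ventral libraries, a tissue that the labels do not name. Ventral library 3 stood apart from the other ventral libraries (correlation of log2 CPM 0.925 and 0.914, against 0.987 between those), and dorsal library 3 stood apart from the other dorsal libraries (0.962 and 0.959, against 0.995 between those). All 10 genes stayed past the threshold without either of them. The part of these cell types and of that RNA in the differences of the 10 genes was not tested.

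**Figure D3:**
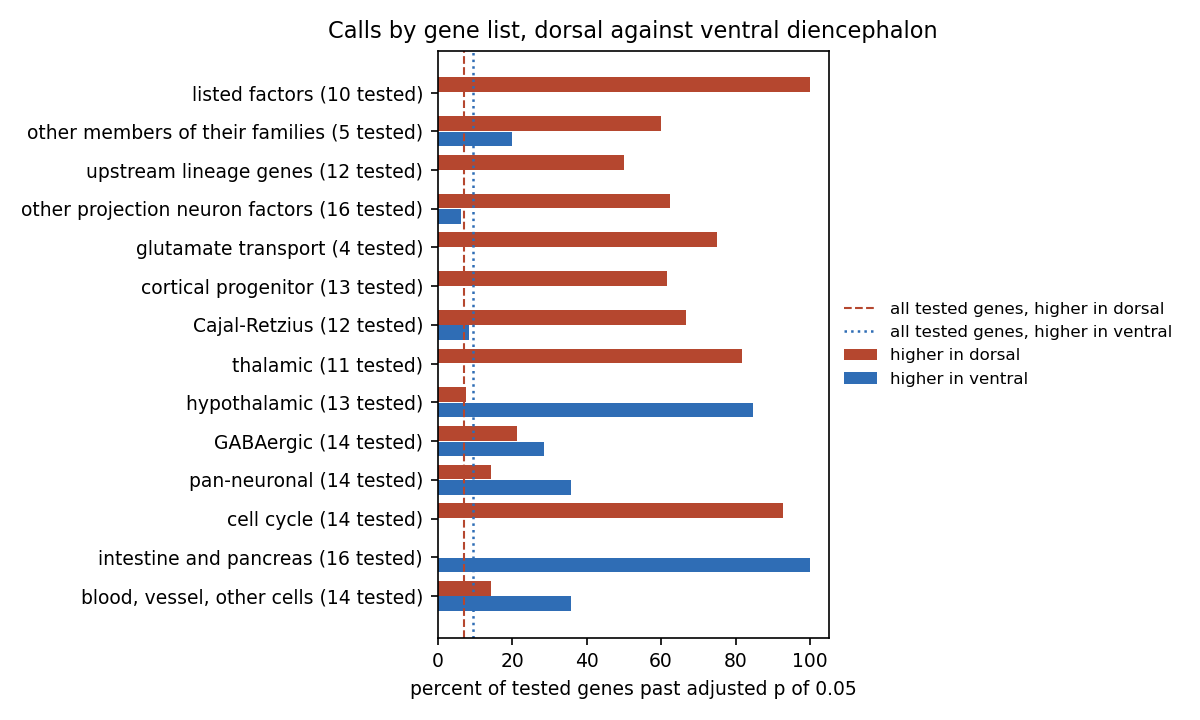
Percent of the tested genes of each list that passed the 0.05 threshold of the edgeR quasi-likelihood test as higher in dorsal (red bars) or higher in ventral (blue bars), with lines at the shares of all genes tested (7.14% and 9.54%). All 10 factors are higher in dorsal, pan-neuronal genes are divided (2 dorsal, 5 ventral, 7 not past), and the 16 intestine and pancreas genes are all higher in ventral.

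The Smart-seq2 libraries address whether loss of Axin2 alters the expression of these factors in medial cortex. No animal is named in the labels, so a genotype is 1 sample here, no test was made, and the values describe these libraries only. The depth behind a TPM value cannot be recovered and is unknown. A gene was counted as detected at 1 TPM or more, and shares carry exact 95% Clopper-Pearson intervals that cover counting error only. All 10 genes were detected together in 10 of 13 Axin2-null and 11 of 12 wild-type libraries, and their summed level had a median of 412 TPM in Axin2-null libraries (range 185 to 759) and 467 TPM in wild-type libraries (range 266 to 854). The mean of log2(TPM + 1) was lower in Axin2-null libraries for 9 of the 10 genes, with a median difference of -0.33. The median over the 13680 genes that averaged 1 TPM or more was -0.22, and 65.9% of those genes were lower in Axin2-null libraries. Neurod6 and Bcl11b were lower by at least 1 on the log2 scale, as were 8.14% of those 13680 genes, and 0 of the 10 were higher by at least 1, as were 1.39% of those genes.

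The number of genes at 1 TPM or more per library was 7863 to 11852 (median 10791) in Axin2-null libraries and 8693 to 12209 (median 11271) in wild-type libraries. Libraries with fewer than 9000 such genes were 4 of 13 Axin2-null and 1 of 12 wild type, and the difference of each gene without them is given below, an alternative chosen after the data were seen. The part of this difference in library complexity in the differences of the 10 genes was not tested. The columns of the table stand in 3 stretches, with 7 Axin2-null and 7 wild-type libraries in the first (G1 to R7), 3 and 5 in the second (G8 to R12) and 3 Axin2-null libraries in the third (G11 to G13). The labels do not say what a stretch is, and differences of mean log2(TPM + 1), Axin2-null minus wild type, within the first and second stretch were computed after the data were seen. Bcl11b differed by -1.65 in the first and -0.84 in the second, and Neurod6 by -0.88 and -1.44. Eomes differed by -0.48 in both, and Tbr1 by -0.18 and -2.74. By this mean all of these were lower in Axin2-null libraries. By median, the first stretch ran the other way for Neurod6 (151 TPM in Axin2-null and 26.2 TPM in wild-type libraries) and Tbr1 (3.68 and 2.4 TPM). For Bcl11b (5.63 and 16.8 TPM) and Eomes (8.84 and 12.05 TPM) the Axin2-null median was lower there. The other 6 genes differed in sign between the stretches: Neurod2 (0.29 in the first, -2.59 in the second), Nfia (0.43, -1.13), Nfib (0.005, -0.75), Fezf2 (0.09, -0.94), Bcl11a (0.58, -0.60) and Zbtb18 (-0.25, 0.96). For these 6 genes the difference over all 25 libraries therefore did not hold within both stretches. In the second stretch the Axin2-null libraries G9 (8204 genes) and G10 (8537 genes) were among those with fewer than 9000 genes. The wild-type libraries there had 11051 (R10) to 11973 (R11) genes. Tbr1 and Neurod2 were at 0 TPM in G10. In the first stretch G1 (8360), G7 (7863) and the wild-type library R1 (8693) had fewer than 9000 genes. The part of the stretches in these differences was not tested.

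Neurod6 ranged from 0 to 234 TPM with a median of 15.8 TPM in Axin2-null libraries, and from 19.9 to 337 TPM with a median of 39.99 TPM in wild-type libraries. The ranges overlapped, but 7 of 13 Axin2-null libraries were below the lowest wild-type library. The Axin2-null libraries also spread more widely, with an SD of log2(TPM + 1) of 2.66 (n = 13), against 1.41 in wild-type libraries (n = 12). The difference of mean log2(TPM + 1) was -1.27, and it was -0.60 without the libraries with fewer than 9000 genes. Leaving out 1 library at a time gave -1.54 (without the Axin2-null library G3 of the table) to -0.89 (without G7). Neurod6 was detected in 12 of 13 Axin2-null libraries (92.3%, interval 64.0 to 99.8%) and in all 12 wild-type libraries. Bcl11b ranged from 0 to 23.2 TPM (median 6.31) in Axin2-null libraries and from 1.70 to 37.8 TPM (median 12.8) in wild-type libraries. Of 13 Axin2-null libraries, 10 were below the wild-type median, and it was detected in 11 of them (84.6%, interval 54.6 to 98.1%) and in all 12 wild-type libraries. Its difference was -1.12, and -0.44 without the libraries with fewer than 9000 genes. Leaving out 1 library at a time gave -1.34 (without R10) to -0.89 (without G1), and it was also under 1 in size without G7 (-0.94) or R3 (-0.99).

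Tbr1 ranged from 0 to 29.6 TPM (median 4.36) in Axin2-null libraries and from 0 to 40.2 TPM (median 9.40) in wild-type libraries. It was the least often detected of the 10, in 10 of 13 Axin2-null libraries (76.9%, interval 46.2 to 94.96%) and 11 of 12 wild-type libraries (91.7%, interval 61.5 to 99.8%). The difference of -0.76 came to -0.02 without the libraries with fewer than 9000 genes, among which were all Axin2-null libraries with Tbr1 under 1 TPM. Eomes ranged from 0 to 32.3 TPM (median 7.66) in Axin2-null libraries and from 2.77 to 21.5 TPM (median 12.3) in wild-type libraries, a difference of -0.37, which was -0.12 without G1, -0.22 without G6 and 0.06 without those libraries. Eomes was detected in 12 of 13 Axin2-null libraries (92.3%, interval 64.0 to 99.8%) and 12 of 12 wild-type libraries (100%, interval 73.5 to 100%). Tbr1 and Eomes were both detected in 21 of 25 libraries, Eomes alone in 3, Tbr1 alone in 0 and neither in 1. The progenitor factor Pax6 was detected together with the neuronal factor Tbr1 in 21 of 25 libraries. Markers that are usually held by different cell stages were therefore found in the same libraries, which the labels call single cells.

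Neurod2 ranged from 0 to 40.9 TPM (median 10.9) in Axin2-null libraries and from 4.39 to 31.9 TPM (median 13.2) in wild-type libraries, and was detected in 12 of 13 Axin2-null and 12 of 12 wild-type libraries. The difference was -0.55, which was -0.28 without G10 and -0.11 without the libraries with fewer than 9000 genes. Nfia ranged from 18.2 to 280 TPM (median 38.7) in Axin2-null and from 23.3 to 98.3 TPM (median 50.02) in wild-type libraries, and Nfib from 32.7 to 194 TPM (median 109) in Axin2-null and from 50.04 to 258 TPM (median 102) in wild-type libraries. The differences were -0.19 for Nfia and -0.28 for Nfib, smaller than the SD over the libraries of either genotype. Without the libraries with fewer than 9000 genes they were -0.31 for Nfia and -0.09 for Nfib. Leaving out 1 library at a time gave -0.41 (without G1) to -0.09 (without G10) for Nfia, which also moved by over 1.5 times without G8, G13, R4, R6 or R11. For Nfib it gave -0.39 (without R8) to -0.16 (without G13), with moves of over 1.5 times without G10, G13, R4 or R5. Zbtb18 ranged from 1.10 to 35.7 TPM (median 13.8) in Axin2-null libraries and from 3.38 to 34.4 TPM (median 9.99) in wild-type libraries. Its difference of -0.12 had no stable sign, with 0.08 when the Axin2-null library G1 was left out, 0.05 without G7, 0.001 without G11, 0.02 without the wild-type library R3, and 0.29 without the libraries with fewer than 9000 genes. Fezf2 ranged from 20.1 to 110.01 TPM (median 64.4) in Axin2-null libraries and from 18.7 to 114 TPM (median 79.1) in wild-type libraries, a difference of -0.29. It was -0.17 without G1, -0.19 without G9, -0.46 without R3 and -0.13 without the libraries with fewer than 9000 genes. Nfia, Nfib, Zbtb18, Bcl11a and Fezf2 were detected in every library of both genotypes.

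Bcl11a was the exception in direction over all libraries. It ranged from 11.6 to 149.9 TPM (median 97.7) in Axin2-null libraries and from 27.8 to 100.3 TPM (median 55.6) in wild-type libraries. Of 13 Axin2-null libraries, 6 were above the highest wild-type library and 3 were below the lowest, so the Axin2-null values lay on both sides of the wild-type range. The difference was 0.23, which was 0.14 without G9 or R2, 0.44 without G10 and 0.39 without the libraries with fewer than 9000 genes. Bcl11a and Neurod2 lie on chromosome 11, the chromosome recombined in MADM-11, as does Axin2, so for these 2 members a difference between the chromosome 11 copies and the Axin2 genotype cannot be told apart.

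**Figure D4:**
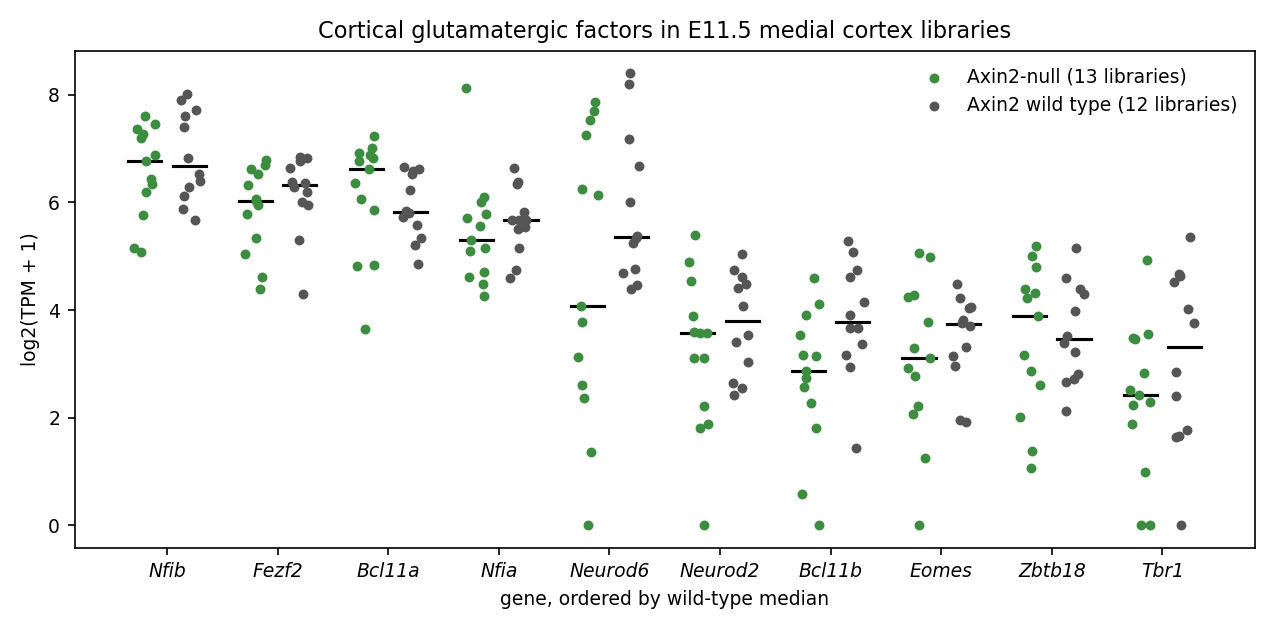
Level of each of the 10 genes in every Smart-seq2 library as log2(TPM + 1), Axin2-null left of wild type, with a bar at each median and genes ordered by the wild-type median. The ranges overlap for every gene, Neurod6 spreads most widely in Axin2-null libraries (SD 2.66), and Bcl11a reaches above the wild-type libraries in 6 Axin2-null libraries.

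Since TPM is scaled by length, the 10 genes can also be ordered here. By Axin2-null median the order was Nfib (109 TPM), Bcl11a (97.7), Fezf2 (64.4), Nfia (38.7), Neurod6 (15.8), Zbtb18 (13.8), Neurod2 (10.9), Eomes (7.66), Bcl11b (6.31) and Tbr1 (4.36 TPM). By wild-type median it was Nfib (102 TPM), Fezf2 (79.1), Bcl11a (55.6), Nfia (50.02), Neurod6 (39.99), Neurod2 (13.2), Bcl11b (12.8), Eomes (12.3), Zbtb18 (9.99) and Tbr1 (9.40 TPM). Neighbours overlapped in their ranges. Nfib was highest and Tbr1 lowest in both genotypes, while Neurod6 was highest per length in dorsal diencephalon. The 2 data sets differ in tissue, age and method and were normalised separately, so only the orders are set side by side.

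Among the paralogs, Nfix ranged from 26.7 to 499.6 TPM (median 95.1) in Axin2-null libraries and from 33.8 to 588 TPM (median 88.1) in wild-type libraries. Neurod1 had medians of 19.0 TPM in Axin2-null and 22.5 TPM in wild-type libraries. Fezf1, the paralog that was higher in ventral diencephalon, was detected in 1 Axin2-null and 2 wild-type libraries, where Fezf2 was detected in all 25. Lists around the 10 genes had median differences of -0.05 (12 upstream lineage genes), -0.29 (14 other projection neuron factors) and -0.06 (13 cortical progenitor genes). They were -0.38 for 14 pan-neuronal genes and -0.36 for 14 cell-cycle genes, beside -0.22 over all genes. Telencephalic markers summed to a median of 370.2 TPM in Axin2-null (range 212 to 485) and 367 TPM in wild-type libraries (range 255 to 543) and were present in all 25. At least 1 thalamic or epithalamic marker was also detected in all 25, with median sums of 70.1 TPM in Axin2-null and 50.9 TPM in wild-type libraries. Tcf7l2 (medians of 47.9 TPM in Axin2-null and 27.7 TPM in wild-type libraries) was detected in all 25. Lhx9 (15.5 and 19.5 TPM) was detected in 24, Gbx2 in 1, Olig3 in 2 and Pou4f1 in 8. The GABAergic markers Gad1, Gad2, Slc32a1 and Dlx2 and the hypothalamic markers each had a median sum of 0 in both genotypes, while the longer list of 14 GABAergic genes had median sums of 11.46 TPM in Axin2-null and 25.7 TPM in wild-type libraries. Blood and vessel markers (Hbb-y, Hba-x, Cdh5, Pecam1) had median sums of 2869 TPM in Axin2-null and 2699 TPM in wild-type libraries. Of these markers, Hbb-y and Hba-x were detected in all 25 libraries, Cdh5 in 8 and Pecam1 in 10. The part of these markers in the levels of the 10 genes was not tested.

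The 10 genes did not vary together as one block across the 25 Smart-seq2 libraries. Over their 45 pairs, Pearson's r of log2(TPM + 1) ran from -0.34 to 0.74 with a median of 0.22, and 5 pairs were above 0.5. The highest were Neurod2 with Nfia (0.74), Neurod2 with Nfib (0.67) and Nfia with Nfib (0.67), so these 3 genes were high and low in the same libraries. Tbr1 with Bcl11b had 0.56 (0.72 within Axin2-null and 0.30 within wild-type libraries), and Neurod2 with Bcl11a 0.50 (0.71 within Axin2-null and 0.08 within wild-type libraries). The lowest was Eomes with Nfia at -0.34, and Tbr1 with Eomes had 0.21. All libraries share the processing and differ in complexity, which moved with some members and not others. Pearson's r with the number of genes detected was 0.68 for Neurod6, 0.63 for Fezf2 and 0.55 for Tbr1, but 0.04 for Nfia. A single feature, CT010467.1, took 1.10 to 31.2% of the TPM of Axin2-null libraries and 1.05 to 32.7% of that of wild-type libraries. The r of its log2 level with the 10 genes ran from -0.51 (Neurod6) and -0.49 (Bcl11a) to 0.15 (Nfia). Rescaled without this feature, the difference of mean log2(TPM + 1) was -1.34 for Neurod6 and 0.21 for Bcl11a.

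**Figure D5:**
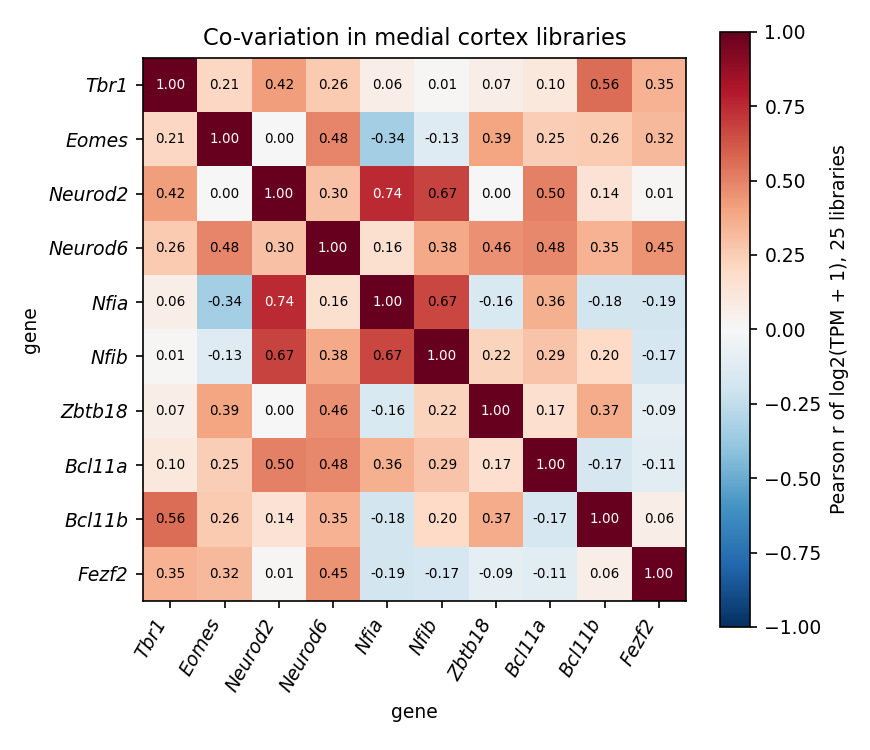
Pearson's r of log2(TPM + 1) between each pair of the 10 genes (rows and columns) over the 25 Smart-seq2 libraries, as colour from -1 to 1 and as a number. Neurod2, Nfia and Nfib form the group with the highest values (0.67 to 0.74), and the median over all 45 pairs is 0.22.

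Among the paralogs, Neurod6 varied most with Nfix, with r = 0.77 over 25 libraries, 0.83 within the 13 Axin2-null and 0.76 within the 12 wild-type libraries. Neurod6 exceeded 100 TPM in 8 libraries, 4 of each genotype. The 6 libraries with the most Neurod6 (151 to 337 TPM) were also the 6 with the most Nfix (408 to 588 TPM), and 4 of these were Axin2-null. All 6 stand in the first stretch of columns. High Neurod6 was thus found in a subset of libraries of either genotype. Bcl11a had r = 0.72 with Neurod1 and 0.77 with the summed level of 13 cortical progenitor genes. That sum had a median of 2741 TPM in Axin2-null libraries, where Fabp7 alone had a median of 1484 TPM. Neurod2 had r = 0.63 with the summed level of 14 pan-neuronal genes and 0.64 with that of 12 Cajal-Retzius genes.

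Among 9286 genes that averaged 5 TPM or more and reached 1 TPM in at least 5 libraries, the 3 whose pattern over the 25 libraries was most like that of each factor were listed. Neurod6 was most like Stmn1 and Tuba1a (r = 0.84 each), which encode a microtubule regulator and a tubulin abundant in young neurons, and Sez6 (0.80). Tbr1 was most like Cop1 (0.81), Traf4 (0.77) and Id4 (0.75), Eomes most like Cfl1 (0.76, with 0.87 within Axin2-null and 0.16 within wild-type libraries), Sdhc (0.73) and Synj1 (0.73), and Neurod2 most like Parp6 (0.80), Trio (0.79) and Actg1 (0.77). Nfia was most like Tenm4 (0.76), Neurod2 (0.74) and Pafah1b1 (0.74), and Nfib most like Rufy2 (0.78), Tenm4 (0.77) and Ccar2 (0.72), so Tenm4 was near both nuclear factor I genes. Zbtb18 was most like Trrap (0.74), Son (0.74) and Sharpin (0.71, with 0.81 within Axin2-null and 0.39 within wild-type libraries), and Bcl11a most like Borcs5 (0.81), Hist1h4i (0.77) and Zdhhc4 (0.77). Bcl11b was most like St8sia2 (0.79), which adds polysialic acid to neural adhesion molecules, Epb41l2 (0.79) and Npepps (0.77). Fezf2 was most like Cyb5d1 (0.85), Anxa2 (0.80) and Alyref2 (0.78). These are the highest of many correlations over 25 libraries, are high in part by selection, and carry no test.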

How the data were processed

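Bulk RNA-seq of 6 libraries and Smart-seq2 of 25 libraries were analysed. The tools Trimmomatic, STAR 2.7.0a and featureCounts and the builds mm10 and GRCm38 are named, per the submitters' processing notes, without a role or order. The bulk table is deposited under the name TPM, but each column adds up to 17604411 to 20838226, and of the values above 0 some 46.6% lay within 0.0001 of a whole number, so the deposited values were taken as estimated counts. They were rounded and tested with edgeR 4.0.16 in R 4.3.3 (TMM, quasi-likelihood fit and F test) over 14701 genes that averaged 1 CPM or more, with Benjamini-Hochberg adjustment over all of them and a threshold of 0.05. The labels do not say whether the 3 libraries per region come from different embryos, so the p-values rest on a spread between libraries that may be technical only. No pair of libraries agreed within sampling noise (lowest chi-square per gene 8.90), and each counted once.

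The Smart-seq2 table holds TPM as deposited by the authors. Its columns name a genotype and not a numbered sample, so the table's own names (G1, R1) are used. Differences are of mean log2(TPM + 1), without a test. The SE of a bulk log2 fold change was derived as its size divided by the square root of the edgeR F statistic. The edgeR step was tested on simulated data. The 10 genes, the lists and the tests were chosen with earlier results of these data known. Named are all 10 genes, their 6 paralogs, up to 2 genes per direction with the smallest adjusted p from each other list, and the 3 genes most like each factor, and a few genes that the rule names are left out for length. Markers in sums were fixed by name, and a few listed genes are not reported here and are left out of the sums and counts of the lists. Alternatives were DESeq2 1.42.0 and its size factors, limma 3.58.1 on log2(CPM + 1), no filter, a replicate block, each library left out, another pseudocount or detection limit, medians, and others added after the data were seen.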

Additional observations from a re-analysis of the deposited data

How the results depend on the processing

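In the bulk comparison all 10 genes stayed higher in dorsal diencephalon and past the threshold in each of 11 alternatives (DESeq2, its size factors in edgeR, limma, no filter, a replicate block and each library left out), with a highest adjusted p of 0.00714. The count over all genes was less stable: leaving out 1 library gave 498 to 1695 genes higher in dorsal (highest without ventral library 3, lowest without dorsal library 1) and 843 to 1928 higher in ventral, against 1050 and 1403. DESeq2 gave 1542 and 2009. The cause was not tested. Without a filter the median over all genes moved to 0.11. Whether replicate numbers pair the bulk libraries was not settled. The deviations of same-numbered libraries from their region mean correlated at 0.0992 to 0.165, against -0.192 to 0.187 for others. Deviations within a region of 3 libraries add up to 0, so these correlations cannot exclude a pairing. With the number as a replicate block, 924 genes passed in the dorsal direction and 1083 in the ventral direction, and 10 of the 10 factors were called.

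In the Smart-seq2 libraries a detection limit of 5 TPM lowered the detection of Tbr1 to 38.5% in Axin2-null and 58.3% in wild-type libraries. Without the libraries with fewer than 9000 genes, Tbr1, Eomes, Neurod2, Neurod6 and Bcl11b were each detected in 100% of Axin2-null libraries. A pseudocount of 0.1 moved the count of all genes past a difference of 1 to 766 higher and 3038 lower in Axin2-null libraries. With medians over libraries in place of means, Nfib (0.10) and Zbtb18 (0.43) changed sign. Within the second stretch of columns, Tbr1 (-2.74, from -0.76) and Neurod2 (-2.59, from -0.55) moved by more than the SD in either genotype. Nfia (-1.13, from -0.19) and Zbtb18 (0.96, from -0.12) moved by less than the SD in Axin2-null libraries. In that stretch the Axin2-null libraries G9 and G10, but no wild-type library, had fewer than 9000 genes. No paired analysis was possible because the numbers in the Smart-seq2 column names are not tied to the numbers of the labels. Unknown depth limits what a value of 0 in TPM can show.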
